A study of Danio rerio with 8 samples.

Results

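The genes for the proteins of the cytosolic ribosome were followed in chondrocytes, the cells that build cartilage, of zebrafish (Danio rerio) larvae. Members were taken by symbol: rpl or rps followed by a digit, or rplp followed by a digit, without the S6 kinase genes (rps6k) and the binding protein gene rps19bp1. The rule found 83 of the 32057 genes in the deposited table, 49 of the large subunit and 34 of the small subunit, under 81 distinct symbols. Cells carrying both reporters were sorted from whole larvae at 3 days of age, raised at 28.5 degrees Celsius with 0.003% PTU against pigment. The design text calls the first group kat6a-deficient. The 4 kat6a libraries bore the label kat6a beside Tg(sox10:EGFP) and Tg(col2a1a:mcherry), and the 4 WT libraries carried the same reporter transgenes alone. The sox10 promoter marks neural crest and its derivatives, and the col2a1a promoter marks cartilage. The labels used here do not say what the kat6a allele is, how many larvae made a library or whether the groups shared parents. The design text speaks of biological replicates, and p-values measure the spread between these libraries.

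Each ribosome joins a small subunit, which reads the mRNA, to a large subunit, which forms the peptide bonds. Most of the proteins are present in 1 copy per ribosome, and their mRNAs are among the most abundant of a growing cell. In vertebrates these mRNAs start with a run of pyrimidines, the TOP element, through which growth signals such as mTOR govern their translation. Chondrocytes secrete large amounts of collagen and proteoglycan, and reduced dosage of single ribosomal protein genes gives skeletal as well as blood phenotypes in mammals.

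Values are FPKM, fragment counts scaled by transcript length and library size, as deposited. Since FPKM keeps no read counts, the depth of each library is unknown. Genes listed above 0 numbered 11010 to 15351 in kat6a libraries and 13483 to 16108 in WT libraries. The sort was cartilage by its markers: all 10 chondrocyte markers were above 0 in every library, and they summed to between 38276 and 65663 FPKM in kat6a and between 30797 and 65958 FPKM in WT. Both libraries numbered 1 stood apart, with the lowest marker sum of their group. The markers did not all move this way. The abundant col2a1a and matn1 were lowest there in both groups. In contrast acana was highest there in both groups, at 2127 FPKM in kat6a and 2389 FPKM in WT, and sox9a was highest in WT replicate 1, at 905 FPKM. The kat6a transcript itself was 28.2, 11.98, 12.4 and 9.09 FPKM in kat6a libraries 1 to 4, against 31.98, 15.2, 16.3 and 18.9 FPKM in WT libraries, a log2 fold change of -0.46 ± 0.36 (SE; limma adjusted p = 0.958), and the transcript level alone does not check the label. Of the 10 skeletal muscle markers the summed level was 637 to 1049 FPKM in kat6a and 478 to 742 FPKM in WT. All 10 tested muscle rows had a log2 fold change (kat6a over WT) above 0, with a median of 0.46, against 30.5% of all tested genes. By limma 3 of these were higher at an unadjusted p under 0.05, against 0.646% of all tested genes. The 7 lens markers summed to 0.438 to 22.9 FPKM in kat6a and 76.6 to 226 FPKM in WT. The 8 markers of liver, pancreas and gut summed to 1.41 to 34.0 FPKM in kat6a and 37.6 to 134 FPKM in WT. By limma all 7 of them that were tested were lower at an unadjusted p under 0.05, against 3.92% of all tested genes. All 7 lens markers were lower at that p too. At an adjusted p under 0.05, 2 of the lens markers were the only genes called over the whole table. The 8 epidermis markers summed to 54.2 to 123 FPKM in kat6a and 56.4 to 580.2 FPKM in WT, with log2 fold changes below 0 for all 8. Leukocyte markers summed to 10.7 to 14.4 FPKM in kat6a and 5.78 to 7.71 FPKM in WT, with mpx, lcp1, coro1a, mpeg1.1 and lyz listed at 0 throughout; the part of these cells in the ribosomal protein values was not tested. In bulk RNA, fewer cells of a type and less RNA per cell cannot be told apart.

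Ribosomal protein mRNAs were abundant in every library. Members made up 40 of the 100 most abundant genes, and 77 of 81 tested members averaged at least 100 FPKM, where 397 genes in all did so. Tested members are those with a mean of at least 0.5 FPKM. The median member averaged 444 FPKM, with quartiles of 214 and 803 FPKM. Small-subunit members had a median of 497 FPKM, and large-subunit members had a median of 399 FPKM. Of the members, 2 rows fell below the filter: a second rpl26 identifier (ENSDARG00000102317) was listed at 0 in all libraries, and a second rpl37 identifier (ENSDARG00000076360) averaged 0.283 FPKM in kat6a and 0.435 FPKM in WT. Below, rpl26 and rpl37 mean the abundant rows.

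The highest was rplp0, the base of the stalk that recruits elongation factors, at 1923 ± 317 FPKM in kat6a and 1991 ± 255 FPKM in WT (SD, n = 4 each). In the small subunit it was rps2, a protein of the mRNA entry channel, at 1609 ± 268 FPKM in kat6a and 1714 ± 182 FPKM in WT. Next in the large subunit came rpl6, rpl18, rpl7a and rpl3, with means over all libraries of 1552, 1520, 1251 and 1174 FPKM. In the small subunit rps14, rps7 and rps20 averaged 1251, 1203 and 1083 FPKM. The core member with the lowest level was rpl22, at 108 ± 6.56 FPKM in kat6a and 90.8 ± 9.15 FPKM in WT. Below it stood only the paralog genes rpl7l1, rps27l and rps8b. Of the 80 neighbouring pairs in this order, 78 had overlapping ranges over the 8 libraries, so only the broad order is resolved. The steps without overlap involve these paralog genes of low level, from rpl22 to rpl7l1 and from rps27l to rps8b. FPKM levels of short mRNAs also depend on how fragments were counted, and equal copies per ribosome are not to be read from them.

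**Figure D1:**
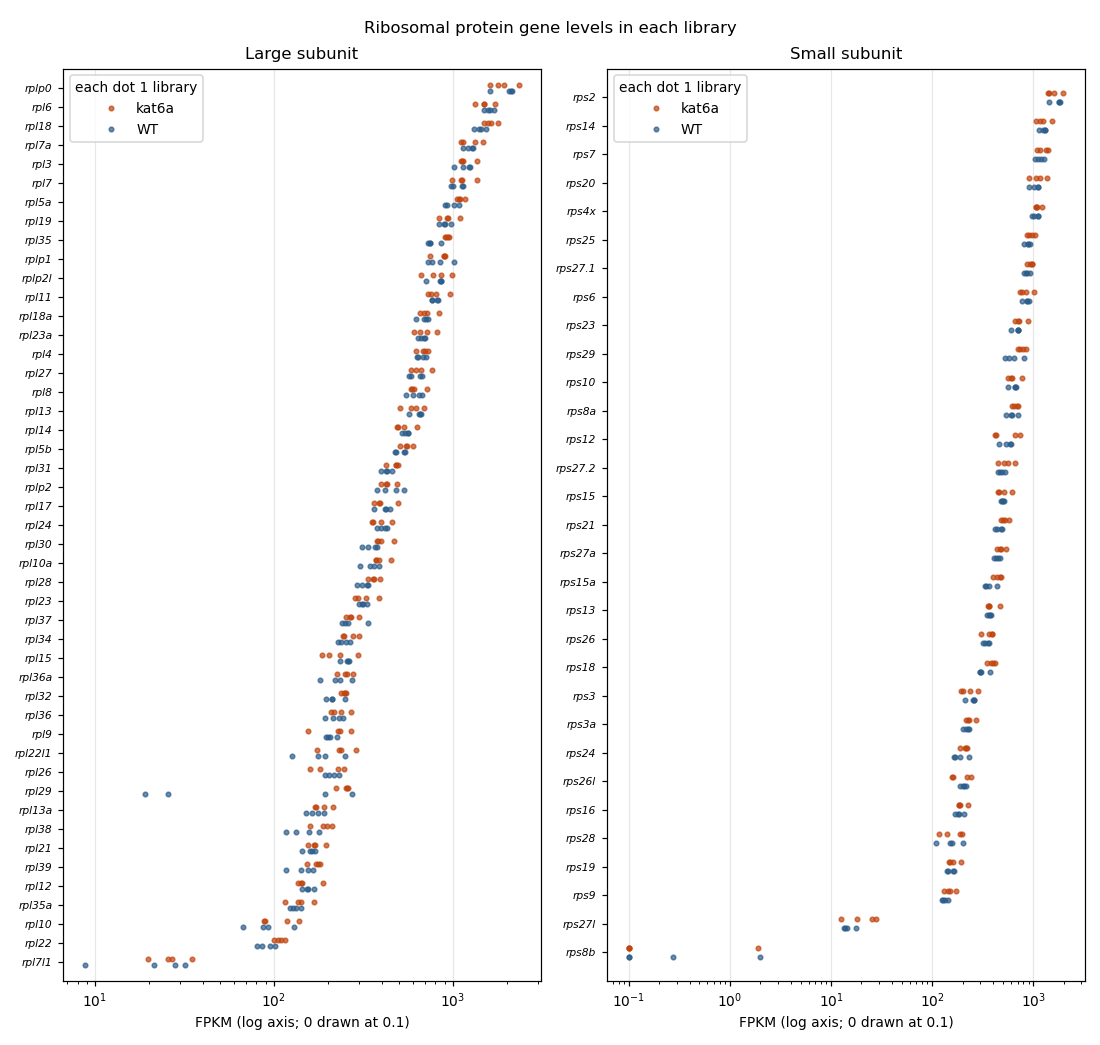
FPKM of 78 of the 81 tested members in each library, on log axes, for the large subunit (left) and the small subunit (right), with kat6a libraries in orange above WT libraries in blue. Of the 81 members 77 average at least 100 FPKM, with the groups interleaved; rpl29 has 2 WT libraries, at 18.9 and 25.7 FPKM, far below the rest, and rps8b is listed at 0 in 5 libraries.

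The ribosomal protein share of all FPKM overlapped between the groups. It was 13.4%, 14.3%, 15.5% and 13.9% in kat6a libraries 1 to 4, against 12.9%, 13.4%, 14.1% and 13.8% in WT libraries 1 to 4. The value of kat6a replicate 3 is above all others. The mean was 14.3 ± 0.901% in kat6a and 13.6 ± 0.502% in WT (SD, n = 4 each), and 13.9 ± 0.442% in kat6a without replicate 3 (n = 3). The subunits moved together. Large-subunit members took 8.09 ± 0.463% of FPKM in kat6a and 7.72 ± 0.238% in WT, and small-subunit members took 6.18 ± 0.445% in kat6a and 5.84 ± 0.270% in WT. The ratio of large to small summed FPKM was 1.35, 1.31, 1.29 and 1.29 in kat6a, against 1.36, 1.30, 1.30 and 1.32 in WT. Both libraries numbered 1 had the highest ratio of their group, and the means, 1.31 ± 0.0287 in kat6a and 1.32 ± 0.0260 in WT, differed by less than the spread.

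**Figure D2:**
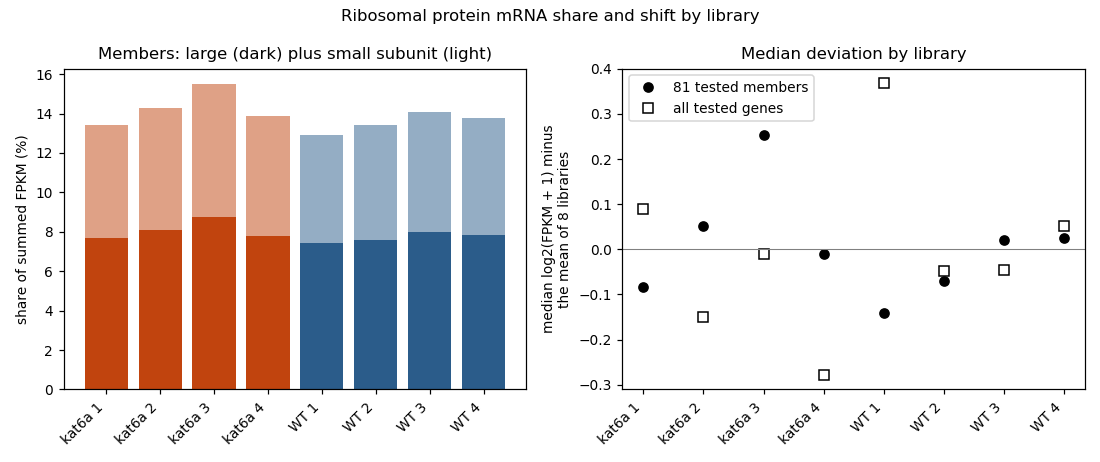
Left, share of summed FPKM in percent taken by large-subunit members (dark) and small-subunit members (light) in each library, kat6a in orange and WT in blue; the share runs from 12.9% in WT 1 to 15.5% in kat6a 3. Right, the median over 81 tested members (dots) and over all 11763 tested genes (squares) of log2(FPKM + 1) minus a gene's mean over 8 libraries; members are highest in kat6a 3, at 0.25, and lowest in WT 1, at -0.14, where all genes are highest, at 0.37.

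Members varied little and varied together. Their median SD within groups was 0.149 on the log2(FPKM + 1) scale, against 0.477 over all tested genes and 0.347 over the 320 other genes with a mean of at least 100 FPKM. Of 81 members 78 were below the median of all genes. In 3 members, rpl29, rpl7l1 and rps8b, the highest library was at least 3 times the lowest or a library was listed at 0, against 65.1% of all tested genes. The lowest SD, 0.0839, belonged to rpl35. What variation there was followed the library. In kat6a replicate 3 the level was the highest of the 8 for 63 of 81 members, against 8.06% of all tested genes, and 80 of 81 members were above their own mean there. That library also had the highest sum of skeletal muscle markers, 1049 FPKM, against 637 to 667 FPKM in the other kat6a libraries and 478 to 742 FPKM in WT, and the part of muscle cells in the members' levels was not tested. In WT replicate 1 the level was the lowest for 30 members, against 6.9% of all tested genes, while 38.2% of all genes were highest in that library. The members' median in the libraries numbered 1 was 0.14 below that in the other 6 on the log2 scale, while the median over all tested genes was 0.28 above.

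Within that shared movement, a few members swung more widely. On the log2(FPKM + 1) scale the mean of the libraries numbered 1 was furthest below that of the others for rpl29, at -1.22. Next came rpl7l1 at -1.02, rpl22l1 at -0.61 and rps28 at -0.59. It was not lower for 10 members, among them rplp2 at 0.15 and rpl6 at 0.056. For rpl29 the value came from WT replicate 1, at 18.9 FPKM, while kat6a replicate 1 was at 257 FPKM and not low. Transcripts of rps28, a protein near the mRNA exit site, were 117, 189, 199.5 and 140 FPKM in kat6a libraries 1 to 4, against 110, 151, 156 and 199.8 FPKM in WT libraries. Those of rps12, a protein of the small subunit's beak, were 421, 660.1, 748 and 433 FPKM in kat6a, against 458, 604, 587 and 532 FPKM in WT. The WT range of rps28 contains its kat6a values, and the kat6a range of rps12 contains its WT values. These 2 genes were chosen after their values were seen.

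**Figure D3:**
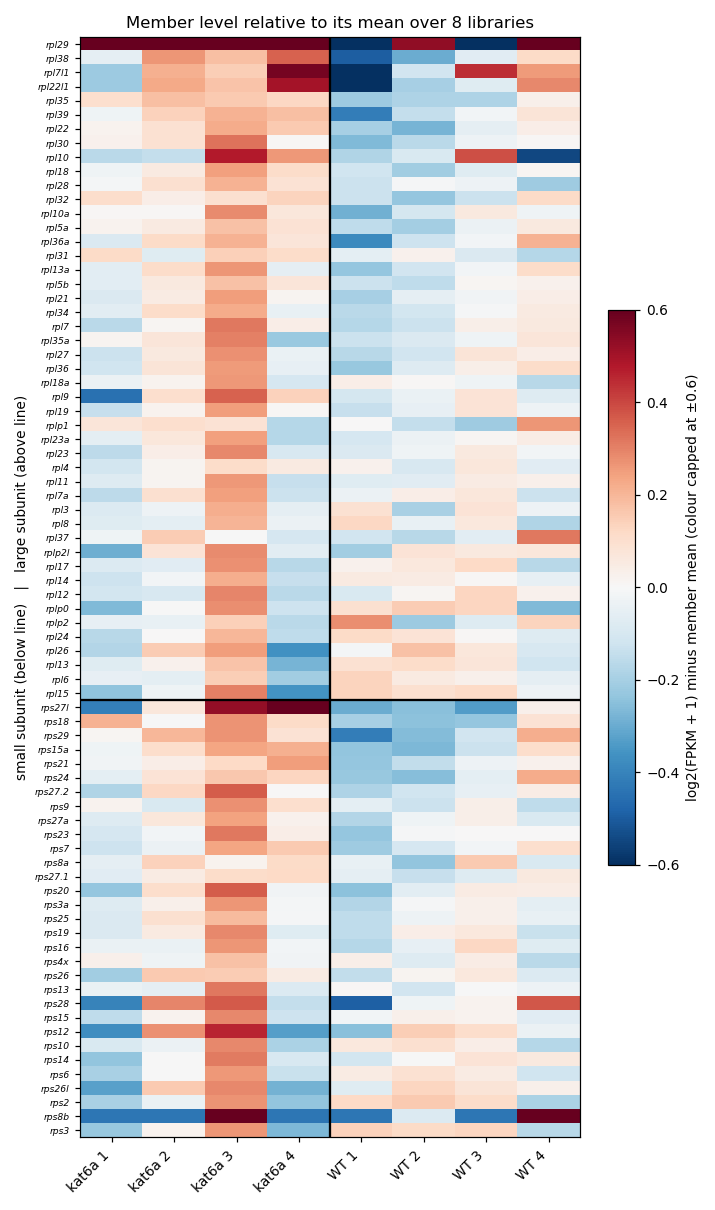
Each row is 1 of 78 of the 81 tested members and each column a library; colour gives log2(FPKM + 1) minus the member's mean over the 8 libraries, capped at 0.6 either way, with large-subunit members above the black line and the rows ordered by fold change within a subunit. In the column of kat6a 3 nearly all rows are above their mean, as for 80 of all 81 tested members, and the top row, rpl29, is dark blue in WT 1 and WT 3 alone.

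The comparison of kat6a with WT asks how kat6a deficiency bears on these genes. No member was called by limma at an adjusted p under 0.05, over 11763 tested genes, in either direction; 0% of all tested genes were called higher and 0.017% lower. At an unadjusted p under 0.05 limma gave 2 members higher, rpl35 and rpl29, against 0.646% of all genes, and none lower, against 3.92% of all genes. Of the 320 other genes with a mean of at least 100 FPKM, 8 were higher and 7 lower at that p. The lowest adjusted p of a member was 0.958. With the replicate number as a block 13 members were higher at an unadjusted p under 0.05, against 2.09% of all genes. These were 8 of the large and 5 of the small subunit. No member was lower, against 8.31% of all genes. Of the 320 other genes with a mean of at least 100 FPKM, 39 were higher and 30 lower at that p with the block. Abundant genes outside the members thus also passed more often than all genes. The lowest adjusted p of a member with the block was 0.451. That blocked fit called 0% of all genes higher and 0.0085% lower. With median-ratio scaling added to the block, 44 members were higher at an unadjusted p under 0.05, against 4.55% of all genes, and none was lower, against 5.08% of all genes. That scaling moved the median log2 fold change of members from 0.085 to 0.24. Without the block it gave 2 members higher, against 1.55% of all genes, and none lower, against 2.98%. Members varied together over the libraries, so these counts are not of independent genes, and the labels do not give the pairs behind the block. The authors' deposited table gave a p under 0.05 for 2 of the 82 members with a deposited p, rpl35 and rps18. The share of all genes under that deposited p was not counted, so the 2 cannot be read as an excess. The lowest deposited q was 0.877 for a member and 0.169 over all genes.

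Most members lay slightly above 0. The log2 fold change, taken as kat6a over WT after adding 1 FPKM, was above 0 for 64 of 81 members, against 30.5% of all tested genes. The median was 0.085 over members, 0.080 over the 47 large-subunit and 0.10 over the 34 small-subunit members, against -0.16 over all tested genes. Other abundant genes were nearer to the members: over the 320 other genes with a mean of at least 100 FPKM the median was 0.052, and 59.1% were above 0. The offset was small and depended on the scale and on single libraries. Quantile normalisation gave a member median of 0.018 against 0.017 over all genes, with 47 of 81 above 0, and median-ratio scaling gave 0.24 against -0.040, with 79 above 0. Without kat6a replicate 3 the member median was 0.020, and 48 of the 80 members then tested were above 0. Without WT replicate 1 the median over all tested genes was -0.063, with 42.8% above 0, and the member median was 0.060. The gap between the median of members and that of all genes, 0.24 with every library, was 0.12 without WT replicate 1 and 0.20 without kat6a replicate 3. The kat6a library was higher in 4 of 4 pairs of equal number for 23 members, against 4.49% of all genes, and in none of the pairs for 0 members, against 18% of all genes.

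**Figure D4:**
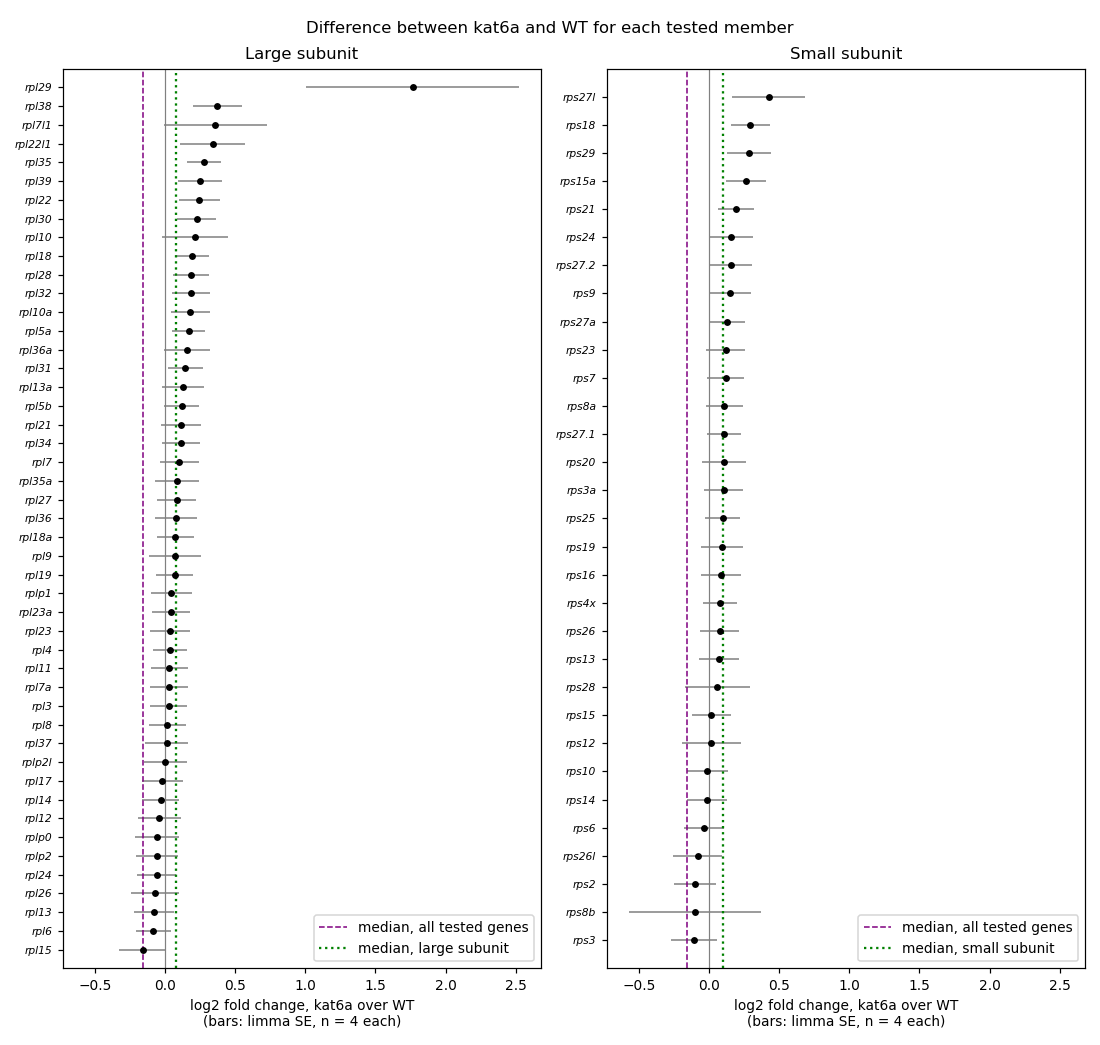
Log2 fold change of 78 of the 81 tested members, kat6a over WT, with limma's standard error (n = 4 each), for the large subunit (left) and small subunit (right), beside the median of the subunit (dotted) and of all tested genes (dashed). All members but rpl29 lie between -0.16 and 0.43; rpl29, at 1.77 ± 0.76, stands out by both its value and its error.

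The one member whose groups did not overlap was rpl35 (ENSDARG00000018334), a protein at the exit of the peptide tunnel, where the signal recognition particle and the translocon dock. Groups that do not overlap with kat6a higher were seen for 0.561% of all tested genes. Its level was 906, 959, 942 and 921 FPKM in kat6a, against 728, 743, 744 and 863 FPKM in WT. All 4 kat6a libraries lie above WT replicate 4, which is itself above the other 3 WT libraries. The log2 fold change was 0.28 ± 0.12 (SE; limma adjusted p = 0.958, unadjusted p = 0.0411), or 0.28 ± 0.084 with the block (adjusted p = 0.451, unadjusted p = 0.0130). The 6 genes whose levels followed rpl35 most closely over the 8 libraries, by Pearson correlation on the log2(FPKM + 1) scale, held 2 members, rps15a at r = 0.896 and rpl22 at 0.886; the highest was lyrm5b at 0.935, and the muscle gene myl1 was among the 6 at 0.887. These are descriptions over libraries that all genes share.

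Other proteins of the peptide exit tunnel had smaller differences. The tunnel list held 9 members, 7 of them above 0, with a median log2 fold change of 0.069. Its member rpl39, a small protein lining the tunnel, was 153, 172, 181 and 177 FPKM in kat6a, against 117, 141, 155 and 165 FPKM in WT. The kat6a library was higher in every pair of equal number, while the groups overlapped. For rpl22, also near the exit, the level was 100.1, 105, 115 and 110 FPKM in kat6a, against 85.7, 81.1, 94.9 and 101 FPKM in WT, again higher in every pair. The unadjusted p with the block was 0.0289 for rpl39 and 0.0341 for rpl22, from limma; the adjusted p was 0.451 for rpl39 and 0.460 for rpl22. The log2 fold change was 0.25 ± 0.16 for rpl39 and 0.25 ± 0.15 for rpl22 (SE). For rpl4 and rpl17, which form the tunnel's narrowest part, it was 0.035 ± 0.12 and -0.019 ± 0.15. For rpl23a, a docking site for targeting factors, it was 0.043 ± 0.13. Differences between these tunnel proteins were not tested.

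A short list, not a full account, was taken of large-subunit members with known skeletal phenotypes in mammals when mutated. It held 3 genes: rpl38 in axial patterning of the mouse, rpl24 in the mouse tail and rpl13 in a human skeletal dysplasia. Transcripts of rpl38 (ENSDARG00000006413) were 159, 199, 187 and 211 FPKM in kat6a, against 117, 134, 157 and 178 FPKM in WT. The kat6a library was higher in 4 of 4 pairs, and the groups overlapped. The log2 fold change was 0.37 ± 0.18 (SE; limma adjusted p = 0.958), or 0.37 ± 0.096 with the block (adjusted p = 0.451, unadjusted p = 0.00622). The other 2 lay on the other side of 0 by less than their errors: rpl24 had a log2 fold change of -0.060 ± 0.14 and rpl13 of -0.078 ± 0.14. After median-ratio scaling rpl24 and rpl13 both stood above 0.

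In the small subunit the lowest unadjusted p in the limma fit without the block were 0.0623 for rps18, 0.0914 for rps15a and 0.102 for rps29. The head protein rps18 (ENSDARG00000100392), which lies near the tRNAs, was 403, 349, 421 and 378 FPKM in kat6a, against 304, 295, 297 and 371 FPKM in WT. Here kat6a replicate 2 is below WT replicate 4, which is the only overlap. Its log2 fold change was 0.29 ± 0.14 (SE; limma adjusted p = 0.958), with an unadjusted p of 0.0246 in the blocked fit. For rps15a, of the body, the level was 396, 434, 476 and 469 FPKM in kat6a, against 343, 334, 369 and 435 FPKM in WT. For rps29, a zinc-binding protein of the head, it was 702, 801, 839 and 740 FPKM in kat6a, against 521, 582, 644 and 809 FPKM in WT. In both, the overlap came from WT replicate 4, the highest WT library for each. Also with an unadjusted p under 0.05 in the blocked limma fit were rpl30, rpl18, rps21 and rpl22l1, with log2 fold changes of 0.23, 0.19, 0.19 and 0.34 and adjusted p of 0.476, 0.480, 0.471 and 0.451.

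**Figure D5:**
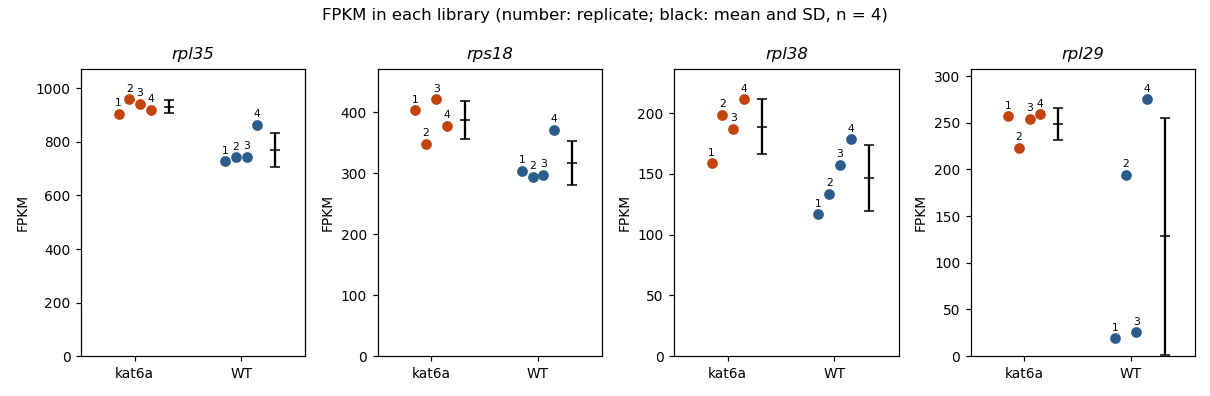
FPKM of 4 members in each library, with kat6a left of WT in each panel, replicate numbers above the points and the mean and SD (n = 4) in black. All kat6a values of rpl35 are above the WT values, rps18 and rpl38 overlap through WT 4, and rpl29 is split within WT, at 18.9 and 25.7 FPKM in replicates 1 and 3 and 194 and 275 FPKM in replicates 2 and 4.

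The largest fold change belonged to rpl29 (ENSDARG00000077717), a small protein on the surface of the large subunit, and it came from a split among the WT libraries. Its level was 257, 223, 255 and 259 FPKM in kat6a, against 18.9, 194, 25.7 and 275 FPKM in WT. WT replicates 2 and 4 averaged 235 FPKM, with replicate 2 below and replicate 4 above every kat6a library, while WT replicates 1 and 3 averaged 22.3 FPKM. The log2 fold change was 1.77 ± 0.76 (SE; limma adjusted p = 0.958, unadjusted p = 0.0426). Its SD within groups, 1.37 on the log2 scale, was larger than that of 97.9% of tested genes, where the member median was 0.149. The share of rpl29 in the large-subunit sum was between 0.0780% and 1.097%. A search over all tested genes for WT replicates 1 and 3 at no more than 1/5 of the lowest of the other 6 libraries, with those 6 above 0, found 4 genes. Besides rpl29 these included CU929079.1 and stc1l, with means of 1.05 and 0.770 FPKM, and all but rpl29 averaged at most 1.05 FPKM, so rpl29 was the only abundant gene with this split. The genes most like it over the 8 libraries by Pearson correlation were sec61g at r = 0.919 and uqcrq at 0.904. The search was chosen after the values were seen, and the cause of the split was not tested. Without the reads, whether 18.9 and 25.7 FPKM stand for less transcript or for how fragments were assigned to the gene cannot be told apart, and the fold change carries that doubt.

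Groups of members by role had medians on both sides of 0. The 5S particle, in which rpl5 and rpl11 escort the 5S rRNA and, when free, bind the p53 regulator Mdm2, is encoded by rpl5a, rpl5b and rpl11. Its 3 genes summed to 2319, 2437, 2731 and 2387 FPKM in kat6a, against 2179, 2141, 2376 and 2438 FPKM in WT. The log2 fold change was 0.17 ± 0.12 for rpl5a, 0.12 ± 0.12 for rpl5b and 0.030 ± 0.13 for rpl11. The stalk, with rplp0, rplp1, rplp2, rplp2l and its neighbour rpl12, summed to 3738, 4280, 4921 and 3842 FPKM in kat6a, against 4301, 4316, 4285 and 4123 FPKM in WT. Of the kat6a values 2 lie below the narrow WT range, 1 inside it and 1 above it. The 5 stalk genes had log2 fold changes from -0.058 to 0.046. Around the peptidyl transferase centre, rpl3, rpl8 and rpl10 had 0.027 ± 0.13, 0.018 ± 0.13 and 0.21 ± 0.23.

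In the small subunit the genes for proteins that guide the mRNA had log2 fold changes on both sides of 0. Each was smaller in size than its SE, so no direction is resolved. Of rps2, rps3, rps15 and rps23, at the entry channel and decoding site, 2 were above 0 and 2 below, from -0.11 for rps3 to 0.12 for rps23. Of rps14, rps26, rps26l and rps28, at the exit site, 2 were above 0 and 2 below, from -0.082 for rps26l to 0.076 for rps26. The ubiquitin fusion gene rps27a had a log2 fold change of 0.13 ± 0.13, and rps6, the substrate of S6 kinase, had -0.036 ± 0.14. Of 18 members whose human counterparts are mutated in Diamond-Blackfan anaemia, an inherited failure of red cell production, 15 were above 0, with a median of 0.10. That is near the members as a whole, with 64 of 81 above 0 and a median of 0.085, against 30.5% of all tested genes above 0. The lowest was rpl15 at -0.16 ± 0.17 and the highest rps29 at 0.29 ± 0.16. None of the members in these role groups was called, and the role groups were chosen with values known.

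Ratios between paralog copies overlapped between the groups in all pairs given here. The ratio of rpl5a to rpl5b was 2.09, 1.96, 1.97 and 1.99 in kat6a, against 1.93, 1.90, 1.90 and 2.01 in WT. The rpl5a copy had the higher FPKM in every library. The ratio of rpl22l1 to rpl22 was 2.16 ± 0.377 in kat6a and 2.04 ± 0.418 in WT (SD, n = 4 each), and was lowest in both libraries numbered 1, at 1.75 in kat6a and 1.47 in WT. So in these cells the paralog rpl22l1 had the higher FPKM of the pair in all 8 libraries. The ratio of rplp2l to rplp2 was 1.90 ± 0.227 in kat6a and 1.85 ± 0.411 in WT. For rps27.2 over rps27.1 it was 0.582 ± 0.0724 in kat6a and 0.560 ± 0.0273 in WT, and for rps26l over rps26 it was 0.532 ± 0.0726 in kat6a and 0.590 ± 0.0186 in WT.

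The paralog genes rps27l, rpl7l1 and rps8b had the lowest mean levels of the tested members. The symbol rule does not show that their products are part of the finished ribosome. Transcripts of rps27l, induced by p53 in human cells, were 12.7, 18.1, 25.2 and 27.9 FPKM in kat6a, against 13.8, 14.3, 13.4 and 17.6 FPKM in WT. Of the 4 kat6a libraries 3 lie above all WT libraries, and kat6a replicate 1 lies below them. The log2 fold change was 0.43 ± 0.26 (SE; limma adjusted p = 0.958). For rpl7l1, which is at least 3-fold variable over the libraries, the level was 19.8, 27.0, 25.8 and 35.0 FPKM in kat6a, against 8.77, 21.3, 31.9 and 27.9 FPKM in WT, 0.0188 to 0.0309 of rpl7 in kat6a and 0.00896 to 0.0283 in WT. The copy rps8b was 0, 0, 1.90 and 0 FPKM in kat6a, against 0, 0.275, 0 and 2.001 FPKM in WT, while rps8a averaged 662 ± 39.7 FPKM in kat6a and 615 ± 70.5 FPKM in WT. Copies of near-identical sequence may share reads, so the split between paralogs is uncertain.

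Genes that work with the cytosolic ribosome were read from the same fit. Of the proteins bound to the ribosome, the scaffold rack1 had a log2 fold change of -0.062 ± 0.14, and naca and btf3, which form the complex that meets nascent chains, had 0.087 ± 0.15 and 0.096 ± 0.18 (SE). Elongation factors had a median of 0.045 over 12 tested genes, 7 above 0; eef1a1l1, the main factor that brings tRNA, was 1802 ± 140 FPKM in kat6a and 1737 ± 80.3 FPKM in WT (SD, n = 4 each). Initiation factors had a median of 0.025 over 29 tested genes, 16 above 0. At an unadjusted limma p under 0.05 none was higher, against 0.646% of all tested genes. At that p 2 were lower, eif3k and eif4h, against 3.92% of all tested genes. The subunit gene eif3k was 44.8, 36.6, 31.8 and 29.7 FPKM in kat6a, against 59.0, 47.6, 47.7 and 46.7 FPKM in WT, and the helicase cofactor gene eif4h was 6.32, 11.8, 15.6 and 9.31 FPKM in kat6a, against 16.02, 15.7, 19.02 and 19.1 FPKM in WT. All kat6a libraries lie below all WT libraries for both, with log2 fold changes of -0.49 ± 0.19 and -0.71 ± 0.27 (SE; limma adjusted p = 0.958 each). Such separation with kat6a lower was seen for 2.57% of all tested genes. Of the other mRNAs with a TOP element, 5 of 9 were above 0, with a median of 0.022. The most abundant, tpt1, was 1841, 1597, 1805 and 1850 FPKM in kat6a, against 1522, 1341, 1466 and 1579 FPKM in WT, with all kat6a libraries above all WT libraries. Its log2 fold change was 0.26 ± 0.12 (SE; limma adjusted p = 0.958). Such separation with kat6a higher was seen for 0.561% of all tested genes. The log2 fold changes of these 9 TOP genes ran from -0.50 to 0.26, the highest being that of tpt1. In the blocked limma fit 1 was higher and 1 lower at an unadjusted p under 0.05, against 2.09% and 8.31% of all tested genes. No gene of these lists was called.

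Most genes that build ribosomes lay below 0, as did most tested genes. Their median level was 6.59 FPKM, against 3.59 FPKM over all tested genes and 444 FPKM over members. They were not compared with other genes of like level. Of 87 tested ribosome biogenesis genes 13 had a log2 fold change above 0 and 74 below, with a median of -0.29, against -0.16 and 30.5% above 0 over all tested genes. None was called, and 1 was lower at an unadjusted p under 0.05, against 3.92% of all genes, or 9 in the blocked fit, against 8.31% of all genes. None was higher at that p in either fit. The list summed to 892, 1427, 1486 and 1054 FPKM in kat6a, against 974, 1354, 1543 and 1674 FPKM in WT. The libraries numbered 1 and kat6a replicate 4 are low, and the rest overlap. The nucleolar gene nop14, whose groups did not overlap, was 5.44, 7.03, 7.05 and 3.35 FPKM in kat6a, against 7.84, 9.62, 9.36 and 7.83 FPKM in WT. Its log2 fold change was -0.56 ± 0.26 (SE; limma adjusted p = 0.958); groups that do not overlap with kat6a lower were seen for 2.57% of all tested genes. Mitochondrial ribosomal protein genes, a separate set of nuclear genes, had a median of -0.25 over 69 tested genes, and none was called. Of them 23, or 33.3%, were above 0, near the 30.5% of all tested genes. At an unadjusted limma p under 0.05, 5 were lower, against 3.92% of all genes, and none was higher. In the blocked fit 4 were lower at that p, against 8.31% of all genes. Lists of low level such as these vary more between libraries than cytosolic ribosomal protein genes: the median SD within groups was 0.523 for biogenesis and 0.687 for mitochondrial ribosomal proteins.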

How the data were processed

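The authors deposited FPKM for each library in 1 table, per the file headers; the submitters' processing notes name HISAT2, StringTie and the build GRCz10, and no source used here names the annotation. The authors' own fold is a ratio of WT over kat6a, and their p-value and q-value stand beside it, per the file headers. Columns were tied to samples by library index. The library name of WT replicate 4 repeats the number 3, and its title was followed, so the pairing by number rests on the titles. Ratios of low FPKM values between libraries showed no common step (at most 1.04% fell in a log2 bin of 0.01), so no reads were recovered.

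Differences were tested with limma 3.58.1 (R 4.3.3, intensity trend) on log2(FPKM + 1), for genes with a mean of at least 0.5 FPKM, two-sided, with Benjamini-Hochberg adjustment over all 11763 tested genes. The step was tested on simulated data. Fold changes on this scale understate low genes. Deviations from the group mean of equally numbered libraries correlated across genes at r = 0.589, 0.347, 0.127 and 0.151. No such r was computed for libraries of unequal number, and the labels do not say what an equal number shares. The numbers were taken as pairs because of these values, but the values cannot show pairing. Deviations within a group sum to 0, so a shift shared by the libraries numbered 1 can raise r among the others too. Results by pair and by block rest on that choice. A fit with the replicate number as a block was run beside the fit without it. Alternatives covered the pseudocount, the filter, 3 scalings, the block and leaving out libraries.

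Members and lists were chosen with earlier results of these data known. Named were rpl35, rpl29, the 5 most abundant members of each subunit, members listed at 0 with a mean of at least 0.5 FPKM, members at least 3-fold variable, those with an unadjusted p under 0.05 with or without the block, and paralog pairs; others were named by role after their values were seen. Values of a few genes are not reported here, though they stay in fits, counts and sums. No sequence or coordinate is printed, since none of the files' build was used here.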

Additional observations from a re-analysis of the deposited data

Results flagged for a closer look

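In 9 of 76 groups of 4 libraries examined, the highest or lowest library stood apart from the other 3 by more than Dixon's 95% value. Chance gives about 1 in 20 only for independent groups not picked by their values. The flagged groups are of named members, some of them named for wide spread or a low p, and members varied together over the libraries. The count therefore cannot show an excess over chance. The gene rps8b, flagged in both kat6a and WT, had no FPKM in 5 libraries. In WT the lowest library stood apart for rplp0 at 1613 FPKM and rps2 at 1445 FPKM, both in replicate 4, and for rplp2l at 705 FPKM in replicate 1. The highest WT library, replicate 4, stood apart for rpl35 at 863 FPKM, rps18 at 371 FPKM and rps8b at 2.001 FPKM. In kat6a the highest library, replicate 3, stood apart for rpl3 at 1359 FPKM and rps8b at 1.90 FPKM, and the lowest, replicate 2, for rpl29 at 223 FPKM.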

How the results depend on the processing

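No alternative called a member: the lowest adjusted p of a member in any fit was 0.401, with the replicate block and median-ratio scaling. Genes called over the whole table numbered 2, against 1 with a pseudocount of 0.1, 0 without a filter, 0 under median-ratio, upper-quartile or quantile scaling, 1 with the replicate block, 0 once median-ratio scaling was added to it, 4 without both libraries numbered 1 and 0 to 5 leaving out 1 library. Members with an unadjusted limma p under 0.05 numbered 2, against 0.646% of all genes higher and 3.92% lower. They numbered 0 without a filter or with quantile normalisation. Upper-quartile scaling gave 1, against 1.46% of all genes higher and 3.05% lower. The block gave 13, against 2.09% higher and 8.31% lower, and 44 when joined to median-ratio scaling, against 4.55% higher and 5.08% lower. Leaving out 1 library gave 0 to 6. The 6 came without WT replicate 4, against 0.714% of all genes higher and 3.22% lower in that fit. All of these members were higher in kat6a. Members varied together over the libraries, so these counts are not of independent genes. Of the 320 other genes with a mean of at least 100 FPKM, the block gave 39 higher and 30 lower at that p. The median log2 fold change of the large and small subunit was 0.080 and 0.10, against 0.24 and 0.26 with median-ratio scaling, with or without the block, and 0.23 and 0.25 with upper-quartile scaling; leaving out 1 library gave 0.0088 to 0.13 and 0.034 to 0.15, the lowest without kat6a replicate 3. Of 33 named members 21 kept their sign in every fit. Signs turned for rplp0, rpl6, rps2, rps14, rplp2 and rps26l under median-ratio scaling (0.11, 0.078, 0.061, 0.14, 0.10 and 0.077, the same with the block) and upper-quartile scaling (0.092, 0.065, 0.048, 0.13, 0.089 and 0.064), for rpl3, rps8b, rps27.1 and rplp2l under quantile normalisation (-0.057, 0.096, -0.018 and -0.075), and for rplp0, rps14 and rplp2 without both libraries numbered 1 (0.047, 0.023 and 0.033). Leaving out 1 library gave ranges across 0 of -0.16 to 0.024 for rplp0, -0.049 to 0.086 for rpl7a, -0.041 to 0.061 for rpl3, -0.12 to 0.062 for rps14, -0.26 to 0.028 for rps8b, -0.015 to 0.57 for rpl7l1, -0.092 to 0.10 for rplp2l, -0.14 to 0.026 for rplp2 and -0.19 to 0.013 for rps26l. The member share differed by 0.70 percentage points, kat6a minus WT, and by 0.289 to 0.990 leaving out 1 library, an alternative chosen after seeing the data. The cause was not tested. Depth is unknown, and the number of libraries limits the precision.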

Other observations

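The 3 symbols rpsa, RPL37A and rack1 belong to cytosolic ribosomal components but lie outside the symbol rule and had values like those of the members. The laminin receptor gene rpsa, a small-subunit protein, was 477 ± 43.6 FPKM in kat6a and 455 ± 15.3 FPKM in WT (SD, n = 4 each), with a log2 fold change of 0.066 ± 0.13 (SE). Written in capitals, RPL37A was 185 ± 20.1 FPKM in kat6a and 165 ± 10.2 FPKM in WT, with 0.16 ± 0.14. The scaffold gene rack1 was 1319 ± 185 FPKM in kat6a and 1372 ± 131 FPKM in WT. All 3 were highest in kat6a replicate 3. Of the kinases that phosphorylate rps6, rps6kb1b was 14.5 ± 2.03 FPKM in kat6a and 13.9 ± 1.21 FPKM in WT, and rps6kb1a was 0, 1.59, 2.60 and 1.16 FPKM in kat6a, against 3.24, 2.56, 1.58 and 3.38 FPKM in WT. These genes were chosen after their values were seen.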
